A study of Mus musculus with 9 samples.

Results

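The genes described here are 5 tubulins and the 5 tubulin folding cofactors, read across all RNA-seq libraries of embryonic midbrain dopamine (DA) neurons that carried 0, 1 or 2 floxed Dot1l alleles. The 10 genes (Tuba1a, Tuba1b, Tubb2b, Tubb3, Tubb5, Tbca, Tbcb, Tbcc, Tbcd and Tbce) were taken from 47729 gene rows. They were selected on the p-values of one comparison: Tbca had the smallest p of all genes in Dot1l(fl/+) against Dot1l(+/+), so in that comparison their values are a description without a test. The symbol in the deposited comparison tables identified 9 of them, and Tubb3, whose symbol cell is blank there, was found by its Ensembl identifier, ENSMUSG00000062380. All 10 passed the filter on low counts that left 17988 genes for testing.

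The libraries came from C57/Bl6 embryos at E15.75, whose YFP-positive midbrain DA neurons were collected by FACS. Every group carried Pitx3-Cre/+, in which the Pitx3 locus of midbrain DA neurons drives Cre, and the Rosa-lox-stop-lox-Yfp reporter, and the groups were Dot1l(+/+) with 3 libraries, Dot1l(fl/+) with 3 and Dot1l(fl/fl) with 2. Dot1l encodes the methyltransferase of lysine 79 of histone H3, and Cre removes a single exon from each floxed allele. Each library pooled the cells of several embryos, so p-values measure the spread between pools. The replicate named Dot1l(fl/fl) 3 is not analysed here.

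Library totals were 13616922 to 43674673 counts, the lowest in the Dot1l(fl/fl) group. Dot1l itself was at 84.6 to 105 CPM (counts scaled to a common library size) in Dot1l(+/+), 65.6 to 76.2 in Dot1l(fl/+), 64.9 in the library labelled Dot1l(fl/fl) 1 and 99.1 in that labelled Dot1l(fl/fl) 2. The last value is inside the Dot1l(+/+) range. Counts per gene cannot show whether the exon that Cre removes was lost, so the deletion was not tested in any library. The Dot1l(fl/fl) pair is called library 1 and library 2 below. All 12 DA neuron markers (among them Th, Slc6a3 and Pitx3) were detected, with a summed level of 6310 to 7202 CPM in Dot1l(+/+), 6222 to 6687 in Dot1l(fl/+) and 5025 to 6020 in Dot1l(fl/fl). In the same order, the 7 blood markers with counts summed to 13.7 to 18.1, 11.95 to 19.4 and 17.0 to 40.4 CPM. Their highest sum was in the library labelled Dot1l(fl/fl) 2. The 12 markers of dividing cells summed to 36.4 to 37.5, 34.7 to 40.4 and 30.2 to 31.3 CPM. GABAergic neuron markers summed to 314 to 361, 316 to 349 and 344 to 376 CPM. Radial glia and progenitor markers summed to 237 to 291, 250 to 267 and 244 to 277 CPM. Glutamatergic markers gave 187 to 224, 209 to 235 and 203 to 218 CPM. Microglia markers gave 97.5 to 119, 85.9 to 122 and 109 to 125 CPM. The highest GABAergic and microglia sums were in the library labelled Dot1l(fl/fl) 1. Endothelium, oligodendrocyte and serotonergic sums stayed at 19.4 CPM or below. In such bulk samples fewer cells of a type and less RNA per cell cannot be told apart, and the part of these markers in the results below was not tested.

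Microtubules are polymers of a heterodimer of α- and β-tubulin. New tubulin chains are folded by the cytosolic chaperonin, to which prefoldin delivers them, and are then handled by the folding cofactors: Tbca captures β-tubulin, Tbcb captures α-tubulin, Tbcd and Tbce take over the β and the α chain, and Tbcc joins them and drives release of the finished heterodimer. Growing axons need large amounts of tubulin, and Tubb3 and Tuba1a are used as hallmarks of young neurons.

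How far RNA-seq can tell these genes apart depends on their sequences, taken here from the GENCODE M21 transcripts on GRCm38. The α-tubulin genes lie next to each other on the minus strand, Tuba1a at chr15:98949837-98953703 and Tuba1b at chr15:98931425-98934565. Over the whole coding sequence of 1356 bases the α pair differed at 23 bases, an identity of 98.3%. The β-tubulins Tubb2b (chr13:34126748-34130466, minus strand), Tubb3 (chr8:123411424-123422015, plus strand) and Tubb5 (chr17:35833921-35838306, minus strand) are shown by their last 60 coding bases, the stretch in which tubulins of one class usually differ most, with the stop codon in capitals.
Tubb2b: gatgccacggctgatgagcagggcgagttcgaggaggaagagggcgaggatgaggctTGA
Tubb3: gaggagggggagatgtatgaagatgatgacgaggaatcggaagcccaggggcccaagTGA
Tubb5: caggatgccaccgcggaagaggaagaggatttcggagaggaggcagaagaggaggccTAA

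The β-tubulins shared 81.4% to 83.9% of aligned coding bases pairwise, but 42.7% to 65.1% in these tails. Cut into windows of 50 bases, the main transcript of Tubb3 shared no window with any other annotated gene and that of Tubb5 shared 0.1%. For Tubb2b the share was 39.3%, mostly with Tubb2a, and for Tuba1a and Tuba1b it was 72.9% and 73.8%, with 16 and 17 other genes, most of them processed pseudogenes. Of the cofactors, Tbcb, Tbcc, Tbcd and Tbce shared no window, and Tbca (chr13:94788910-94842922, plus strand, 6 merged exon blocks of 811 bases in all) shared 25.5% with the processed pseudogenes Gm6142 and Gm4374. How reads that fit several of these genes were counted is not given in the sources used here, so the split between Tuba1a and Tuba1b is uncertain. Tuba1b had 24813 counts over all 8 libraries, fewer than its pseudogene Gm14150 with 43239, beside 923625 for Tuba1a.

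Tubulin RNA was among the most abundant RNA of these neurons. Levels between genes are given per length, as RPKM over merged exons. Tuba1a, the main α-tubulin of developing neurons, had the highest mean at 2317 RPKM (range over the 8 libraries 2072 to 2607), the 3rd highest of 47224 annotated genes. Tubb3, the neuronal class III β-tubulin, followed at 1638 RPKM (1499 to 1929, rank 7), then Tubb5 at 1487 (1319 to 1772, rank 8) and Tubb2b at 1205 (1092 to 1378, rank 11). The ranges of Tubb3 and Tubb5 overlapped, as did those of Tubb5 and Tubb2b. The 5 tubulins together took 1.35% to 1.75% of all counts of a library, and the highest share was in the library labelled Dot1l(fl/fl) 1.

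The cofactors were far lower and unequal. Tbcb had 130 RPKM (109 to 163) and Tbca 114 (79.6 to 138), with overlapping ranges, while Tbcc had 26.5, Tbcd 16.4 and Tbce 13.9, each with a range apart from its neighbour in the order. Tuba1b, with the reserve stated above, lay between Tbca and Tbcc at 60.7 RPKM. The length of the main transcript in place of merged exons was an alternative added after seeing the data. With it Tubb5 came before Tubb3 (1868 against 1638 RPKM) and Tbca before Tbcb (165 against 133). Tbce and Tbcd (34.2 and 34.0) came before Tbcc (26.5). In that order the ranges overlapped for Tuba1a and Tubb5, Tubb5 and Tubb3, Tbca and Tbcb, and Tbce and Tbcd.

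**Figure D1:**
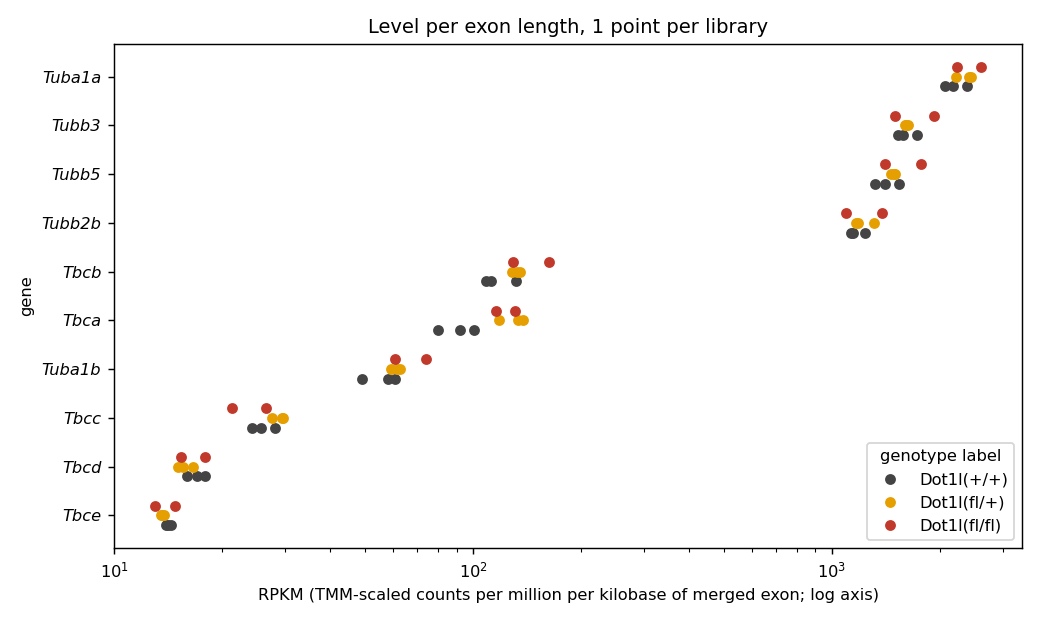
Level of each of the 10 genes in RPKM over merged exons (log axis), 1 point per library, coloured by genotype label and ordered by the mean over all 8 libraries. The 4 highest genes are Tuba1a, Tubb3, Tubb5 and Tubb2b, all at 1092 RPKM or more in every library, and the Tbca points of Dot1l(+/+) lie to the left of those of both other genotypes.

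The comparison of Dot1l(fl/+) with Dot1l(+/+), which asks what loss of 1 Dot1l allele does to expression, was the one that chose the genes. No gene passed an adjusted p of 0.05 in edgeR's quasi-likelihood test with Benjamini-Hochberg adjustment (0 of 17988, 0.0%), 903 had an unadjusted p under 0.05 (5.02%), and DESeq2 over all genotypes also called 0. Tbca stood at 74.7, 81.9 and 64.6 CPM in Dot1l(+/+) 1, 2 and 3 and at 111.6, 96.0 and 108.2 CPM in Dot1l(fl/+) 1, 2 and 3. The groups did not overlap. The mean of 105 ± 8.22 CPM (SD, n = 3) against 73.7 ± 8.67 CPM (SD, n = 3) gave a log2 fold change of 0.51 ± 0.11 (SE), or 42.9% higher. That value ranked first by p, which is what the rule used.

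The other 9 genes differed less in that comparison. Their log2 fold changes ran from -0.10 for Tbcd to 0.17 for Tbcb, with Tbcc at 0.15, Tuba1b at 0.13, Tuba1a at 0.09, both Tubb5 and Tubb2b at 0.06, Tubb3 at 0.00 and Tbce at -0.06. In all 8 of the 10 genes were higher, beside 49.0% of all genes tested, with a median of 0.08 beside -0.01. Tbce was the other gene without overlap (63.3 to 65.4 CPM in Dot1l(+/+) and 61.4 to 62.4 in Dot1l(fl/+)), and 11.5% of all genes did not overlap in this comparison. As the rule used this contrast, nothing is read from these counts.

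**Figure D2:**
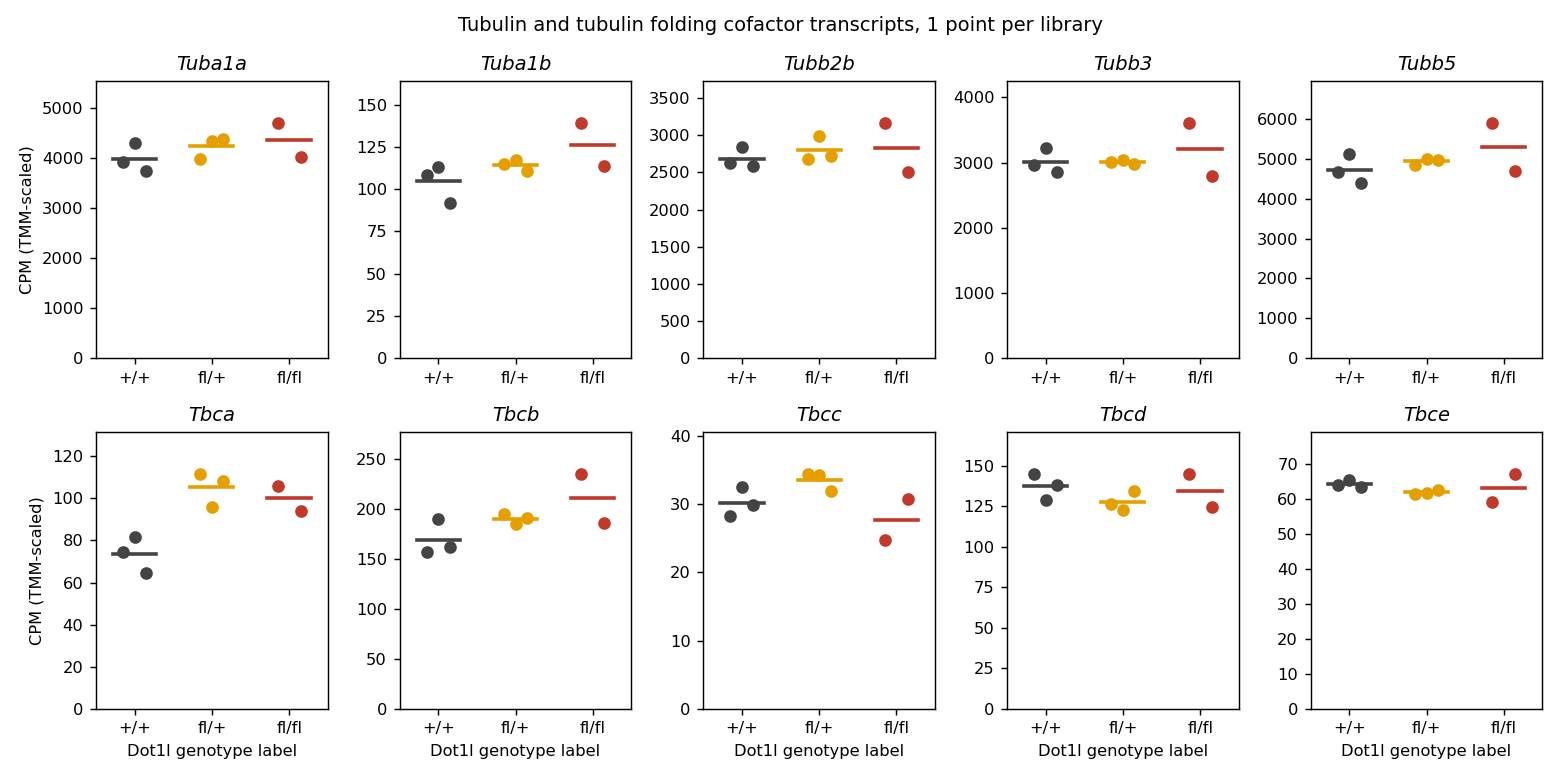
CPM (scaled by TMM factors, axis from 0) of each gene in every library, 1 point per library with a bar at the group mean, by Dot1l genotype label. Tbca is the gene whose Dot1l(+/+) points (64.6 to 81.9 CPM) lie below all points of both other genotypes (93.8 CPM and above), and for the 5 tubulins the left-hand Dot1l(fl/fl) point, library 1, is the highest of the 8.

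Dot1l(fl/fl) against Dot1l(+/+) shares its 3 Dot1l(+/+) libraries with the comparison that chose the genes, so it is no independent repeat of it. No gene passed an adjusted p of 0.05 in edgeR (0 of 17988, 0.0%, smallest adjusted p 0.0985), 1667 had an unadjusted p under 0.05 (9.27%), and DESeq2 over all genotypes called 197. Of the 10 genes, 7 were higher and 3 lower (49.5% of all genes tested were higher), with a median log2 fold change of 0.11 beside 0.00 over all genes. An unadjusted p under 0.05 was reached by 4, all higher (Tbca, Tbcb, Tuba1b and Tubb5), beside 4.24% of all genes that were higher at that p. Of the DA neuron markers, 11 of 12 were lower in the same comparison. An unadjusted p under 0.05 was reached by 8 of them, beside 904 of 17988 genes that were lower at that p. None passed after adjustment in this fit, but 3 did with an offset for exon length and GC, where 8 of all genes passed. The part of these markers in the tubulin values was not tested.

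Tbca, the β-tubulin capture cofactor, stood at 106.1 CPM in library 1 and 93.8 CPM in library 2. Both lay above the highest Dot1l(+/+) library at 81.9 CPM, the first inside the Dot1l(fl/+) range of 96.0 to 111.6 CPM and the second just below it. The log2 fold change was 0.44 ± 0.13 (SE), or 35.7% higher, which ranked 128 of 17988 by p and did not pass (edgeR, adjusted p = 0.248). DESeq2 over all genotypes gave the same size, 0.44, and an adjusted p of 0.0412, which passed. From library 1 alone the value was 0.53 and from library 2 alone 0.35. It was 0.32 once an offset corrected for exon length and GC together. Of the 10 genes, Tbca and Tuba1b were those whose groups did not overlap in this comparison, both higher, beside 12.1% of all genes that were higher without overlap.

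The make-up of the cofactors is given as a description, since the share of Tbca in Dot1l(fl/+) restates the difference that chose the genes. Its part of the summed cofactor RPKM was 32.1% to 35.8% in Dot1l(+/+), 38.9% to 41.5% in Dot1l(fl/+) and 37.8% to 38.4% in Dot1l(fl/fl), while Tbcb took 40.8% to 47.1% over the 8 libraries. Summed, the 5 cofactors came to 266 ± 22.5 RPKM (SD, n = 3) in Dot1l(+/+), 320 ± 14.0 (SD, n = 3) in Dot1l(fl/+) and 324 ± 31.6 (SD, n = 2) in Dot1l(fl/fl). These sums include Tbca, with means of 90.9, 130 and 123 RPKM in the same order, so they partly restate the selected difference. In Dot1l(fl/fl) against Dot1l(+/+) 2 cofactors were higher and 3 lower, with a median log2 fold change of -0.03. The 3 β-tubulins, the chains that Tbca binds, summed to 4204 ± 269, 4317 ± 106 and 4540 ± 763 RPKM in the same order of genotypes. These differences in the β sum were smaller than the spread within Dot1l(fl/fl).

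The pseudogenes that share windows with Tbca were far lower, and their log2 fold changes against Dot1l(+/+) had wide SEs. Gm6142 gave 0.12 ± 0.23 (SE) with 1 floxed allele and 0.02 ± 0.27 (SE) with 2. For Gm4374 the values were -0.13 ± 0.28 (SE) and -0.02 ± 0.32 (SE). The part of misplaced reads in the Tbca values was not tested. Gm6142 was at 9.18 to 12.1 CPM in Dot1l(+/+), 9.54 to 13.6 with 1 floxed allele and 9.72 to 10.8 with 2, and Gm4374 at 7.29 to 10.6, 5.21 to 10.1 and 7.05 to 10.9, so the groups overlapped for both. With their counts added to those of Tbca, an alternative added after seeing the data, the groups still did not overlap: Dot1l(+/+) reached 104.5 CPM and the lowest library of the other genotypes was at 114.4. The log2 fold changes were then 0.42 with 1 floxed allele and 0.36 with 2.

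Tbcb, the α-tubulin capture cofactor, stood at 156.7, 190.1 and 161.8 CPM in Dot1l(+/+), 195.4, 184.8 and 191.4 in Dot1l(fl/+), and 235.2 and 186.3 in libraries 1 and 2. Library 2 lay below Dot1l(+/+) 2, so the groups overlapped. The log2 fold change in Dot1l(fl/fl) was 0.31 ± 0.12 (SE; edgeR, adjusted p = 0.351), 0.47 from library 1 alone and 0.13 from library 2 alone. Tbcb overlaps Polr2i on the opposite strand over 22.5% of its exon bases, and the strand setting of the counting is not given in the sources used here.

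For the remaining cofactors no difference between Dot1l(fl/fl) and Dot1l(+/+) was larger than its SE. Tbcc, which completes the heterodimer, stood at 28.2, 32.6 and 29.9 CPM in Dot1l(+/+), 34.4, 34.2 and 31.9 in Dot1l(fl/+), and 24.8 and 30.7 in Dot1l(fl/fl). Both values from Dot1l(fl/fl) lay below every Dot1l(fl/+) library. Tbcd ranged from 122 to 145 CPM and Tbce from 59.1 to 67.1 over the 8 libraries, and their log2 fold changes in Dot1l(fl/fl) against Dot1l(+/+) were both -0.03, with SE of 0.11 and 0.13. For Tbcc the value was -0.13 ± 0.17 (SE).

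**Figure D3:**
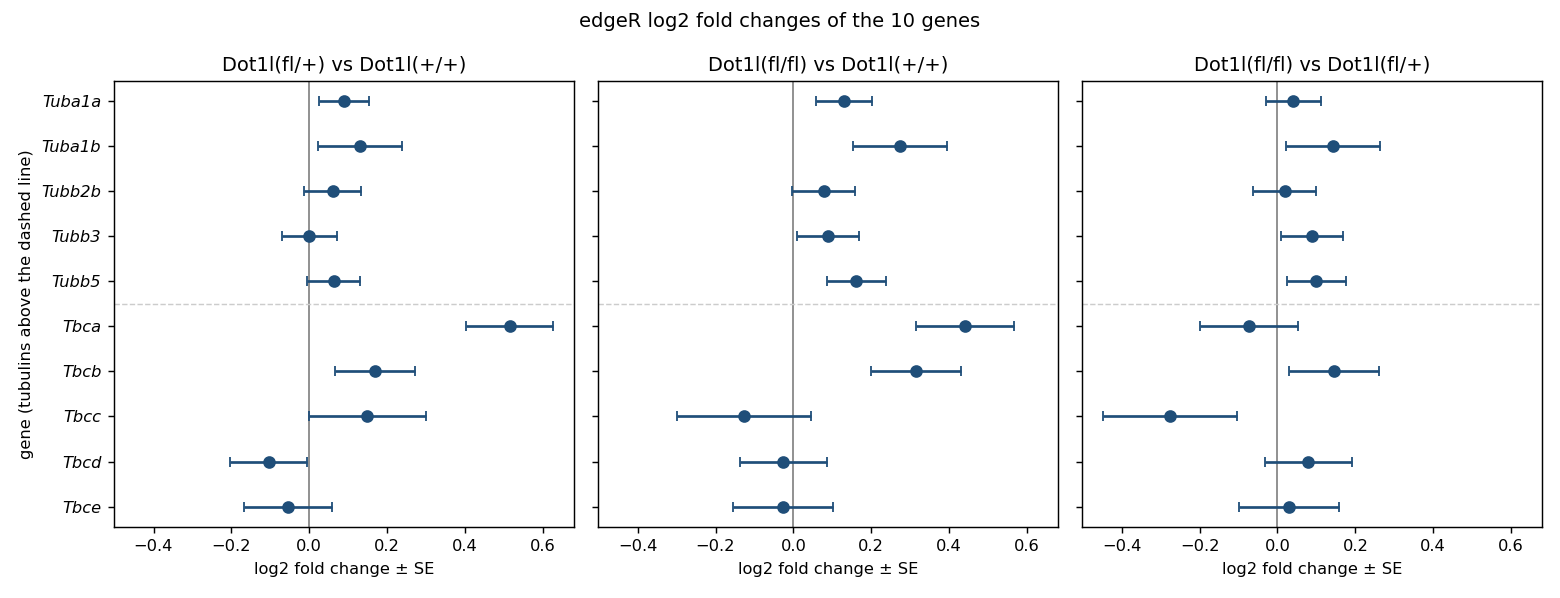
edgeR log2 fold changes (points) with their SE (bars) of the 10 genes in the 3 comparisons, tubulins above the dashed line and cofactors below. Tbca stands farthest to the right in both comparisons against Dot1l(+/+), at 0.51 and 0.44, and near 0 (-0.07) in Dot1l(fl/fl) against Dot1l(fl/+).

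The tubulins were at their highest in library 1 and not in library 2. Tubb5 stood at 4679, 5121 and 4389 CPM in Dot1l(+/+), 4853, 4997 and 4967 in Dot1l(fl/+), and 5896 and 4687 in libraries 1 and 2. The first lay above all other libraries and the second inside the Dot1l(+/+) range. The log2 fold change was 0.16 ± 0.08 (SE; edgeR, adjusted p = 0.515), but 0.32 from library 1 alone (adjusted p = 0.0332) and -0.01 from library 2 alone.

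Tubb3 had the same arrangement, with 2958, 3218 and 2858 CPM in Dot1l(+/+), 3011, 3044 and 2981 in Dot1l(fl/+), and 3604 and 2801 in Dot1l(fl/fl). Library 1 was the highest of the 8 and library 2 the lowest, and the log2 fold change was 0.09 ± 0.08 (SE). Tuba1a, at 3736 to 4299, 3990 to 4395, and 4027 and 4700 CPM, gave 0.13 ± 0.07 (SE), and Tubb2b, at 2586 to 2841, 2680 to 2997, and 2505 and 3162 CPM, gave 0.08 ± 0.08 (SE). From library 2 alone these values were -0.11 for Tubb3, 0.01 for Tuba1a and -0.10 for Tubb2b. From library 1 alone they were 0.26, 0.24 and 0.24.

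Tuba1b stood at 108.4, 113.4 and 92.0 CPM in Dot1l(+/+), 115.1, 117.2 and 111.0 in Dot1l(fl/+), and 139.1 and 113.6 in Dot1l(fl/fl). Dot1l(+/+) and Dot1l(fl/fl) were separated by no more than the gap between Dot1l(+/+) 2 and library 2. The log2 fold change was 0.27 ± 0.12 (SE; edgeR, adjusted p = 0.478), and its pseudogene Gm14150 gave 0.24 ± 0.11 (SE), highest in library 1 at 242 CPM. With the counts of 9 pseudogenes added to Tuba1b the groups overlapped, library 2 at 320.3 CPM lying below Dot1l(+/+) 2 at 321.9.

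Counted over the list, 7 of the 10 genes had an unadjusted p under 0.05 from library 1 alone, all higher, beside 11.1% of the 19374 genes tested in that fit, in either direction. The median log2 fold change was 0.25 beside -0.03 over all genes. From library 2 alone 1 gene had it, Tbca, beside 6.88% of 19384 genes, and the median was 0.02. The 3 β-tubulins were higher from library 1 and lower from library 2. The proportions within the β class varied little. Over the 8 libraries Tubb3 made up 36.7% to 38.5% of the summed β-tubulin RPKM, Tubb5 33.2% to 35.2% and Tubb2b 27.1% to 29.4%.

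**Figure D4:**
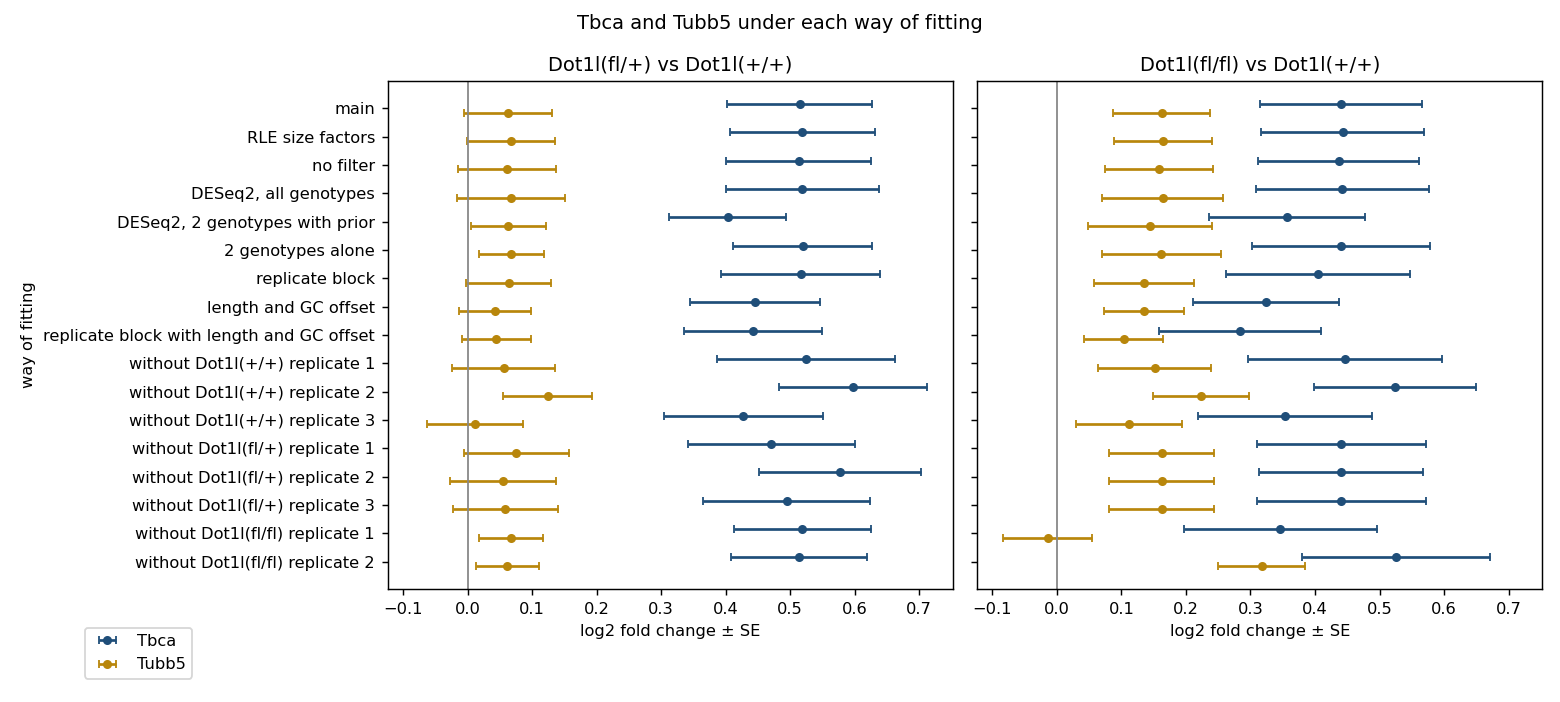
Log2 fold changes with SE of Tbca (blue) and Tubb5 (ochre) against Dot1l(+/+), under each way of fitting, in Dot1l(fl/+) (left) and Dot1l(fl/fl) (right); "main" is the edgeR fit used in the text. Tbca stays above 0.28 throughout. Tubb5 in Dot1l(fl/fl) moves from 0.32 to -0.01 depending on which Dot1l(fl/fl) library is left out. Tbca was chosen in the left comparison and the right one shares its Dot1l(+/+) libraries, so the Tbca values are a description only.

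Dot1l(fl/fl) against Dot1l(fl/+) shares libraries with both comparisons above and gives the test of the difference between the genotypes with 2 and with 1 floxed alleles. edgeR called no gene (0 of 17988, 0.0%), 723 had an unadjusted p under 0.05 (4.02%), and DESeq2 over all genotypes called 1. None of the 10 genes reached an unadjusted p of 0.05. Tbca differed by -0.07 ± 0.13 (SE) on the log2 scale, with a 95% interval from -0.32 to 0.17 (edgeR, adjusted p = 0.998). Tbcc was the gene without overlap, at a log2 fold change of -0.28 ± 0.17 (SE; edgeR, adjusted p = 0.998), beside 9.57% of all genes that were lower without overlap. It was -0.44 from library 1 alone and -0.13 from library 2 alone. The direction over the 10 genes depended on the Dot1l(fl/fl) library used. Their median log2 fold change was -0.08 from library 2 alone, with 1 gene higher and 9 lower. It was 0.18 from library 1 alone, with 8 higher and 2 lower. From library 1 alone 6 of the 10 genes had an unadjusted p under 0.05, all higher, beside 5.71% of all genes in either direction.

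Tbca was compared with all 9952 other genes at a mean of 10 CPM or more for likeness of pattern. The genes most like it over the 8 libraries were Ebpl (Pearson r = 0.957), Timm17b (0.955), Ndufaf6 (0.954), Eif1a (0.953) and Nsf (0.945), where the points share library depth and preparation and n is 8. These libraries include those of the comparison in which Tbca ranked first by p. As the genes were picked for likeness to Tbca, their gaps between genotypes follow from that choice and are a description only. Timm17b, a subunit of the mitochondrial import machinery, had 46.3 to 54.3 CPM in Dot1l(+/+) and 56.5 to 70.9 in the other genotypes. Nsf, the ATPase that takes apart SNARE complexes, had 244 to 262 CPM against 264 to 289. Among the other 9 genes described here, r with Tbca was highest for Tbcb (0.769) and Tuba1b (0.733) and lowest for Tbcd (-0.313) and Tbce (-0.455).

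The rest of the microtubule pathway was read in lists chosen with earlier results known. Of the chaperonin and prefoldin subunits that fold new tubulin, 13 of 14 tested were higher in Dot1l(fl/fl) than in Dot1l(+/+), beside 49.5% of all genes. Their median log2 fold change was 0.18 beside 0.00 over all genes. An unadjusted p under 0.05 was reached by 4, all higher, beside 4.24% of all genes, and none passed after adjustment. Among them the chaperonin subunits Cct5 (0.22 ± 0.10, SE) and Cct3 (0.23 ± 0.10, SE) and the prefoldin subunit Pfdn5 (0.29 ± 0.12, SE) had the smallest p, and Cct3 gave 0.14 from library 2 alone. Cct5 stood at 396 to 480 CPM in Dot1l(+/+) and at 496 and 497 in Dot1l(fl/fl). The median was 0.17 from library 2 alone and 0.19 from library 1 alone, and in Dot1l(fl/+) 13 of 14 were higher as well, with a median of 0.12 against the same Dot1l(+/+) libraries. With the offset for exon length and GC, 11 of 14 were higher in Dot1l(fl/fl), 3 of them with an unadjusted p under 0.05. The median was then 0.15 beside 0.02 over all genes.

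Microtubule-associated proteins and stathmins held 23 of 34 genes that were lower, with a median of -0.10. An unadjusted p under 0.05 was reached by 7 that were lower and 1 that was higher, beside 9.27% of all genes in either direction, and none passed after adjustment. Map1b, a large microtubule-binding protein of growing axons, had 2853 to 3831 CPM in Dot1l(+/+) and 2619 and 2832 in Dot1l(fl/fl), a log2 fold change of -0.32 ± 0.09 (SE; edgeR, adjusted p = 0.248), which was -0.16 with the offset for exon length and GC. Camsap1, which binds microtubule minus ends, gave -0.37 ± 0.11 (SE; edgeR, adjusted p = 0.269) and passed in DESeq2 over all genotypes (adjusted p = 0.0403). Its value was -0.25 with that offset and -0.25 without Dot1l(+/+) 3. Stmn3, a stathmin that binds tubulin dimers, gave 0.31 ± 0.10 (SE), or 0.21 from library 2 alone. Corrected by that offset, the list had 16 of 34 genes lower and a median of 0.01 beside 0.02 over all genes, so its direction depends on that correction.

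The remaining lists had medians between -0.08 and 0.14 in Dot1l(fl/fl) against Dot1l(+/+). Among 8 other α- and β-tubulins tested, 6 were higher (median 0.14), and Tubb2a (0.16 ± 0.09, SE) and Tubb4b (0.22 ± 0.13, SE) had their highest level in library 1 and turned to -0.06 and -0.08 without it. Tuba1c, a close copy of both α-tubulins, had 10.1 CPM (184 counts) in library 1 and 0.114 to 1.13 CPM in the other 7, and its log2 fold change of 3.11 became -0.10 without library 1. The γ-, δ- and ε-tubulins with the γ-tubulin ring had a median of 0.03 over 12 genes, where Tubg2, a γ-tubulin, gave 0.42 ± 0.18 (SE). The partners of the cofactors had a median of -0.01 over 7 genes, where Rp2, a relative of Tbcc, gave -0.53 ± 0.25 (SE) and Arl2, the GTPase that works with Tbcd, gave 0.20 ± 0.15 (SE). Without library 1 these became -0.31 for Rp2 and -0.03 for Arl2, and without library 2 they became -0.78 and 0.39. The tubulin-modifying enzymes (median -0.03 over 20) and the severing enzymes (median -0.08 over 7) held no gene with an unadjusted p under 0.05. In Dot1l(fl/+) the smallest p values of the lists fell on Tubd1 (0.86 ± 0.32, SE), the tyrosine ligase relative Ttll3 (-0.85 ± 0.33, SE) and Stmn2 (0.14 ± 0.06, SE), none past adjustment in edgeR. Tubd1 and Ttll3 were low, with group means of 3.64 to 7.23 and 3.30 to 5.92 CPM. In Dot1l(fl/fl) against Dot1l(+/+) they gave -0.13 ± 0.37 (SE) and -0.35 ± 0.37 (SE).

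**Figure D5:**
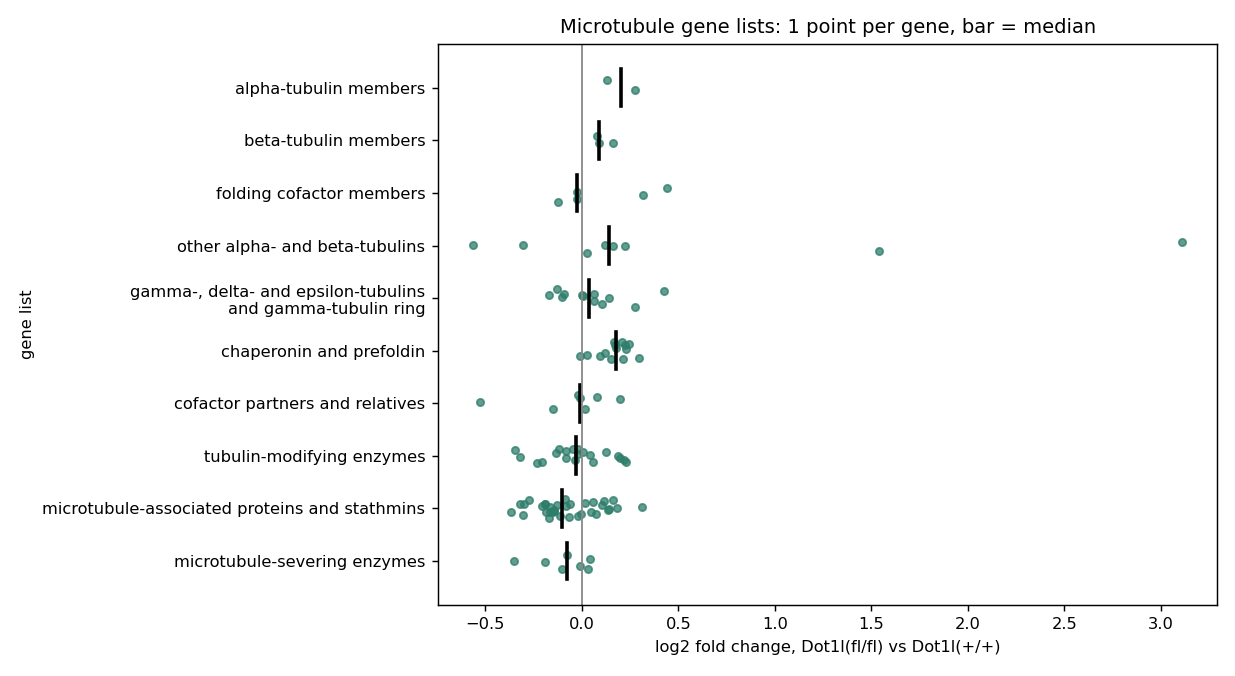
Log2 fold changes of Dot1l(fl/fl) against Dot1l(+/+) for the tubulins and cofactors described here and for the other microtubule gene lists, 1 point per tested gene, with a bar at the median of each list. The chaperonin and prefoldin points lie to the right of 0 except for 1 of 14, and the isolated point at 3.11 is Tuba1c, which rests on library 1.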

How the data were processed

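Whole-number counts per Ensembl gene and library were deposited by the authors, not normalised. Per the labels, bcl2fastq 2.17, Trimmomatic 0.30 and DESeq2 1.10.1 were used upstream, and the methods name a directional library kit and GRCm38. The aligner, the counting tool, its strand setting and its handling of reads that fit several genes are not given in the sources used here. The authors' own comparison tables (fold changes and p-values) served only to pair identifiers with gene symbols.

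All 8 libraries entered a single fit of edgeR 4.0.16 (R 4.3.3), with TMM factors, filterByExpr and the quasi-likelihood test without covariates. P-values of all 17988 genes that passed the filter were adjusted together (Benjamini-Hochberg), and 0.05 was the limit for a call. SEs are the log2 fold change divided by the square root of F. Fits were tested on simulated counts. CPM use the TMM-scaled library total, and RPKM are CPM per kilobase of exons merged from GENCODE M21, which held 98.9% of the identifiers. "From library 1 alone" means a fit without library 2, in which the lone library is assumed to vary like the other groups, and the reverse for library 2. A count of 3 corresponded to 0.0687 to 0.220 CPM, and counts without molecular identifiers give counting error only.

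Alternatives were DESeq2 1.42.0, RLE size factors, no filter, 2 genotypes alone, a replicate block, an offset per library from splines of exon length and GC, and each library left out in turn. The members and the lists were chosen with earlier results of these data known. Named beside the 10 genes are, per list, the 3 genes with the smallest p in Dot1l(fl/fl) against Dot1l(+/+) and the 1 with the smallest p in Dot1l(fl/+), of which the text gives those that bear on a value, the 5 genes most like Tbca, and near-identical copies with counts. Some items are not reported here.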

Additional observations from a re-analysis of the deposited data

How the results depend on the processing

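The comparisons are taken in the order Dot1l(fl/+) with Dot1l(+/+), Dot1l(fl/fl) with Dot1l(+/+), and Dot1l(fl/fl) with Dot1l(fl/+), called the first, second and last. edgeR as described called 0 genes in each. Without the filter on low counts 11, 106 and 14 genes were called. DESeq2 over all genotypes called 0, 197 and 1, and DESeq2 with a prior on 2 genotypes called 11, 73 and 2. The offset for length and GC gave 0, 8 and 0. Leaving out 1 library gave 0 in the first comparison, 0 to 75 in the second (75 without Dot1l(+/+) 2, 50 without Dot1l(fl/fl) 2) and 0 to 7 in the last.

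The study's methods state that genotypes were matched within litters before pooling, but neither they nor the labels tie the replicate numbers to litters. Deviations of same-numbered libraries correlated at -0.120 to 0.145 over 7 pairs, and those of 14 other pairs at -0.219 to 0.219; with 2 Dot1l(fl/fl) libraries, their values mirror each other by construction. So a pairing by number was not shown, and fits with and without it are given. With the replicate block 0, 6 and 4 genes were called, and with block and offset together 0, 16 and 5. None of the 10 genes passed an adjusted p of 0.05 in the last 2 comparisons with the block.

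In the first comparison all 162 refitted values of the 10 genes moved by less than 1 SD, and that of Tbca was 0.40 to 0.60. In the second Tbca was 0.28 to 0.53. There Tbcd turned to 0.057 under the offset and 0.069 under block plus offset, and Tubb2b to -0.025 under block plus offset. Over single omissions Tubb2b ran from -0.10 to 0.24, Tubb3 from -0.11 to 0.26, Tubb5 from -0.015 to 0.32, Tbcc from -0.29 to 0.022, Tbcd from -0.14 to 0.078 and Tbce from -0.12 to 0.062. In the last comparison Tubb2b turned to -0.0071 under the block, -0.0086 under the offset and -0.042 under block plus offset, and Tuba1a to -0.0048 under block plus offset. Over single omissions Tuba1a ran from -0.082 to 0.15, Tuba1b from -0.017 to 0.28, Tubb2b from -0.17 to 0.18, Tubb3 from -0.11 to 0.26, Tubb5 from -0.082 to 0.26, Tbca from -0.17 to 0.011, Tbcb from -0.039 to 0.30, Tbcd from -0.042 to 0.18 and Tbce from -0.065 to 0.11. In both comparisons each of these ends came from leaving out a Dot1l(fl/fl) library, and the cause was not tested.

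Plain library totals in place of TMM moved the summed RPKM ratios of each class by less than 1 SD. With 2 Dot1l(fl/fl) libraries that differed from each other, tubulin differences of the size seen could not be told from the spread between libraries.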
